A study of Macaca mulatta with 10 samples.

Results

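Neurotrophins and their receptors were followed across 5 thalamic nuclei of adult rhesus macaques that had received no treatment. The genes asked for were the ligands BDNF and NTF3, the receptor kinases NTRK2 and NTRK3, the shared receptor NGFR and the sorting receptor SORT1. Every probe set whose annotation names exactly 1 of these symbols was taken, each on its own. This gave 13 of the 19065 probe sets annotated to a single gene, with 1 for BDNF, 4 for NTRK2, 7 for NTRK3 and 1 for NGFR. The annotation used here lists 0 probe sets for NTF3 and 0 for SORT1, so these genes were not analysed here.

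Neurotrophins are secreted proteins that keep neurons alive during development and tune synapses in the adult brain. BDNF acts through the receptor tyrosine kinase TrkB, encoded by NTRK2, and neurotrophin-3 acts mainly through TrkC, encoded by NTRK3. Both receptor genes also give rise to truncated forms without the kinase, and truncated TrkB is abundant in astrocytes. NGFR encodes p75, a receptor that binds all neurotrophins and their precursors and that is low in most adult neurons outside the basal forebrain.

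Tissue was taken by micro-punch from the Pulvinar, the Centre Median and the Ventral, Medial and Anterior Thalamus, and biotin-labelled total RNA was hybridised to an Affymetrix array designed for human transcripts. Each nucleus had 2 arrays, numbered replicates 1 and 2, and the study looked for genes particular to a nucleus. All groups are untreated tissue; the labels give neither sex nor the number of animals, nor do they say whether the arrays of a nucleus came from different animals. The p-values therefore measure only the spread between these arrays, which may be technical. In bulk punches, fewer cells of a type and less RNA per cell cannot be told apart.

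Values are log2(intensity + 1) of the deposited intensities, and fold changes are on that scale. The 10 arrays had median intensities of 94.17 to 100.6. TCF7L2, a transcription factor of thalamic neurons, had nucleus means of 12.23 to 12.70, and SLC17A6, their vesicular glutamate transporter, had means of 10.44 to 11.20, so these 2 markers of the labelled tissue were bright in every nucleus. LHX2, another marker of these neurons, was low, with means of 6.16 to 6.46. The replicate sets differed more than the nuclei did. With limma, 54% of all probe sets differed between replicate 1 and replicate 2 at an adjusted p under 0.05. Each comparison was therefore made in 2 fits, 1 of them with a block on the replicate number, that is, a term that removes the shift between the sets.

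Among the nuclei, no neurotrophin or receptor probe set passed the test in either fit. The F test asked for any difference among the 5 nuclei. Without the block it called 0 of the 13, and 0 had an unadjusted p under 0.05; here limma called 0% of all probe sets. With the block it called 0 of the 13, and 3 had an unadjusted p under 0.05; here limma called 0.215%, and 8.92% of all probe sets had an unadjusted p under 0.05. The smallest p with the block belonged to BDNF (unadjusted p = 0.00372, adjusted p = 0.217), then to the NTRK2 probe set 214680_at (0.00866 and 0.294) and the NTRK3 probe set 217377_x_at (0.0411 and 0.522). Without the block each of the 13 had an adjusted p of 1.00.

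**Figure D1:**
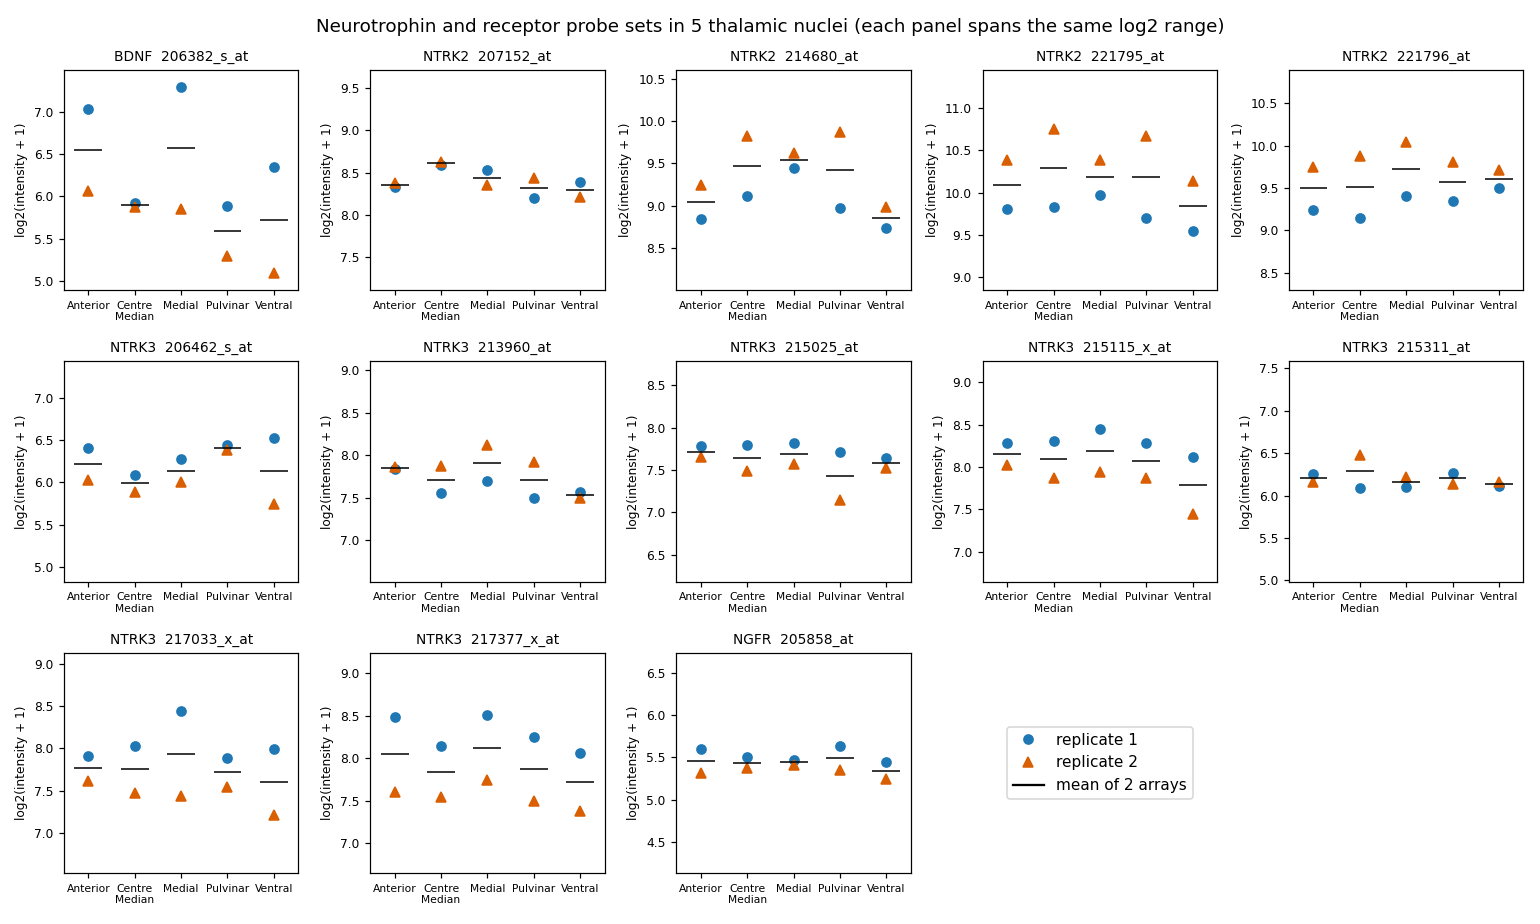
Each panel plots 1 probe set, with log2(intensity + 1) on the vertical axis, the 5 nuclei on the horizontal axis, circles for replicate 1, triangles for replicate 2 and a line at the mean of the 2 arrays. All panels span the same range, so the wide spread of BDNF, from 5.10 to 7.29, can be set against that of NGFR, from 5.24 to 5.63.

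BDNF, the ligand, had the widest spread of the 13 probe sets. Its replicate 1 values were 7.29 in Medial Thalamus, 7.03 in Anterior Thalamus, 6.35 in Ventral Thalamus, 5.92 in Centre Median and 5.89 in Pulvinar. In replicate 2 they were 6.06 in Anterior Thalamus, 5.87 in Centre Median, 5.85 in Medial Thalamus, 5.30 in Pulvinar and 5.10 in Ventral Thalamus. Anterior Thalamus lay in the upper 2 of 5 in both sets and Pulvinar in the lower 2, whereas Medial Thalamus went from the highest place to the third. In the units of the array these values are intensities of 33.4 to 155, and they ranked between the 14.9th and the 66.3rd percentile of the probe sets on their array.

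The mean for BDNF was 6.57 ± 1.01 (SD, n = 2) in Medial Thalamus and 6.55 ± 0.69 (SD, n = 2) in Anterior Thalamus. Centre Median followed at 5.90 ± 0.03, Ventral Thalamus at 5.73 ± 0.88 and Pulvinar at 5.60 ± 0.41 (SD, n = 2 each). The SD of Medial Thalamus was as wide as the range of the 5 means, 0.97. With the block, Medial Thalamus differed from the mean of the other 4 nuclei by 0.63 (SE 0.196, a 1.55-fold difference, unadjusted p = 0.00719, adjusted p = 0.285) and Anterior Thalamus by 0.60 (SE 0.196, unadjusted p = 0.00984, adjusted p = 0.843). Pulvinar differed by -0.59 (SE 0.196, unadjusted p = 0.0107, adjusted p = 0.999). Its widest pair, Medial Thalamus minus Pulvinar, was 1.40 in replicate 1 and 0.55 in replicate 2, a fitted 0.97 (95% interval 0.44 to 1.51, not adjusted for multiple tests, adjusted p = 0.279). The same difference ranged from 0.26 to 1.69 when 1 array was left out at a time.

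The replicate 1 arrays also differed in a sex-linked signal. XIST, transcribed from the inactive X chromosome, minus RPS4Y1, a Y-linked gene, lay between -2.07 and -0.97 on the replicate 1 arrays of Anterior, Medial and Ventral Thalamus. On the other 7 arrays it lay between 1.31 and 3.38. Those same 3 arrays held the highest values of BDNF in replicate 1, at 6.35 to 7.29, and the other 2 arrays of that set stood at 5.89 and 5.92. The NTRK3 probe set 213960_at was split in the same order but narrowly, at 7.57 to 7.84 against 7.50 to 7.55. How many of all probe sets were split like this was not counted. With a further term for this class of arrays beside the block, BDNF differed by 0.90 between the classes (SE 0.199, unadjusted p = 0.000622, adjusted p = 0.423). For 213960_at the class difference was 0.25 (unadjusted p = 0.213). The class term was called for 0 of the 13 members and for 0.0315% of all probe sets. At an unadjusted p under 0.05 there were 3 of the 13 members, beside 5.57% of all probe sets. Besides BDNF these were the NTRK2 probe sets 214680_at (0.53, unadjusted p = 0.0118, adjusted p = 0.78) and 221795_at (0.42, unadjusted p = 0.0431, adjusted p = 0.876).

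NTRK2, the receptor of BDNF, was read by 4 probe sets that all lay at or above the 83.3rd percentile of their arrays. The probe set 214680_at varied most among nuclei. In replicate 1 it stood at 9.45 in Medial Thalamus, 9.11 for Centre Median, 8.97 for Pulvinar, 8.84 for Anterior Thalamus and 8.74 for Ventral Thalamus. In replicate 2 it stood at 9.87 for Pulvinar, 9.82 for Centre Median, 9.62 for Medial Thalamus, 9.25 for Anterior Thalamus and 8.98 for Ventral Thalamus. Ventral Thalamus was lowest and Anterior Thalamus second lowest in both sets, while the upper 3 nuclei changed places. Ventral Thalamus differed from the other nuclei by -0.35 in replicate 1 and -0.67 in replicate 2, and the fitted difference of -0.51 (SE 0.141, a level 1.42-fold lower, unadjusted p = 0.00339) had an adjusted p of 0.172 with the block.

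The NTRK2 probe set 221795_at had the same lowest nucleus. Ventral Thalamus stood at 9.55 and 10.14, against 9.70 to 9.97 in the other replicate 1 arrays and 10.38 to 10.75 in the other replicate 2 arrays. Its difference from the other 4 nuclei was -0.34 (SE 0.132, unadjusted p = 0.0232, adjusted p = 0.359 with the block). 207152_at also had its lowest mean in Ventral Thalamus, at 8.30, with a difference of -0.13 from the rest (unadjusted p = 0.264). It had its highest value in Centre Median in both sets, at 8.59 and 8.63, against 8.20 to 8.53 elsewhere, a difference of 0.26 (SE 0.110, unadjusted p = 0.0389, adjusted p = 0.789). Only 221796_at of the 4 had its lowest mean in another nucleus, with Ventral Thalamus highest in replicate 1, at 9.50, and lowest in replicate 2, at 9.71, with a fitted difference of 0.03 (95% interval -0.23 to 0.29).

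The actin control probe sets, which read both ends of 1 transcript as a sign of RNA integrity, stood apart on the Ventral Thalamus arrays. Its log2 3' minus 5' signal was 1.22 there in replicate 1, against -0.09 to 0.46 in the other nuclei, and 1.64 in replicate 2, against 1.15 to 1.36. Once this signal joined the block as a covariate, the Ventral Thalamus difference was -0.40 (SE 0.267, adjusted p = 0.754) for 214680_at and -0.17 (SE 0.251, adjusted p = 0.908) for 221795_at. For BDNF it went from -0.43 to -0.08 (SE 0.342). Other members moved away from 0, such as the NTRK3 probe sets 213960_at, from -0.26 to -0.50 (SE 0.21, adjusted p = 0.577), and 206462_s_at, from -0.06 to -0.32 (SE 0.214, adjusted p = 0.761). With the covariate 12 of the 13 members lay below 0 in Ventral Thalamus. With the class term for the sex-linked signal instead, 214680_at differed by -0.64 (SE 0.119, adjusted p = 0.0366) and was the 1 member called in Ventral Thalamus against the other 4, where 0.587% of all probe sets were called. That call was not made in the fits without this term.

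NTRK3, the receptor of neurotrophin-3, was read by 7 probe sets, 3 of which carry the suffix _x_at that marks probes able to bind other transcripts as well. Among these, 215115_x_at stood at 8.45 for Medial Thalamus, 8.31 for Centre Median, 8.29 for Anterior Thalamus, 8.28 for Pulvinar and 8.12 for Ventral Thalamus on the replicate 1 arrays. On those of replicate 2 it stood at 8.03 in Anterior Thalamus, 7.94 in Medial Thalamus, 7.87 in both Centre Median and Pulvinar, and 7.45 in Ventral Thalamus. Ventral Thalamus was lowest in each set, and its 7.45 was the lowest of the 10 values. The difference from the other 4 nuclei was -0.35 (SE 0.105, unadjusted p = 0.00579, adjusted p = 0.219 with the block), and it was -0.45 (SE 0.200, adjusted p = 0.605) with the actin covariate.

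217377_x_at gave a similar picture. Medial Thalamus was highest in both sets, at 8.51 and 7.74, and Ventral Thalamus lowest in both, at 8.06 and 7.38. Medial Thalamus differed from the rest by 0.26 (SE 0.0986, adjusted p = 0.409) and Ventral Thalamus by -0.25 (SE 0.0986, adjusted p = 0.367). 217033_x_at had its highest value of 8.44 in Medial Thalamus in replicate 1, but stood at 7.44 there in replicate 2, within the 7.22 to 7.62 of the other nuclei.

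The other NTRK3 probe sets differed in which nucleus was highest. 213960_at had means of 7.91 ± 0.30 in Medial Thalamus and 7.53 ± 0.05 in Ventral Thalamus (SD, n = 2 each), with a Ventral Thalamus difference of -0.26 (SE 0.118, unadjusted p = 0.0471, adjusted p = 0.455). 206462_s_at had its highest mean in Pulvinar, at 6.41 ± 0.04 (SD, n = 2), a difference of 0.29 from the rest (SE 0.123, adjusted p = 0.999). For 215025_at Pulvinar was instead the lowest, at 7.43 ± 0.39 (SD, n = 2), a difference of -0.23 (SE 0.108, adjusted p = 0.999). The order among nuclei thus depended on the NTRK3 probe set. 215311_at spanned only 0.15 between its highest and lowest means, and its values lay between 6.09 and 6.48.

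NGFR, the p75 receptor, had the narrowest range of all members over the 10 arrays together with 215311_at. Its values were 5.44 to 5.63 in replicate 1 and 5.24 to 5.41 in replicate 2, between the 17.4th and 22.8th percentile of their arrays. Ventral Thalamus was lowest in both sets, at 5.44 and 5.24. The 95% interval of its difference from the rest, not adjusted for the number of tests, was -0.29 to 0.06 with the block and -0.40 to 0.17 without it. A low signal from a probe of human sequence does not show that the monkey transcript is absent.

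**Figure D2:**
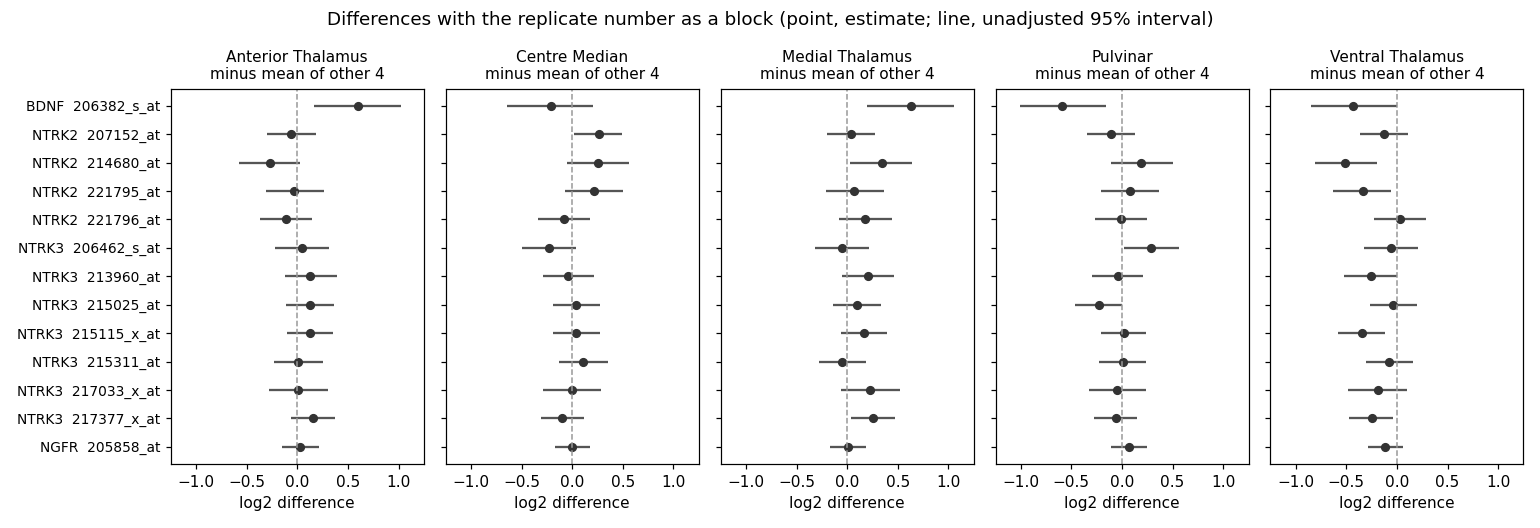
Each panel plots, for 1 nucleus, the log2 difference from the mean of the other 4 nuclei in the blocked fit; points are estimates and lines are 95% intervals not adjusted for multiple tests. In Ventral Thalamus 12 of the 13 points lie below 0 and in Medial Thalamus 11 of the 13 lie above it, and none passed after adjustment.

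Against the mean of the other 4 nuclei, limma called 0 of the 13 probe sets in every nucleus and in both fits. At an unadjusted p under 0.05 with the block there were 5 in Ventral Thalamus, 3 in Medial Thalamus, 2 in Pulvinar, 1 in Anterior Thalamus and 1 in Centre Median, and 0 in each without it. Over all probe sets with the block, the shares at that unadjusted threshold were 10.7% in Ventral Thalamus, 9.60% in Medial Thalamus, 3.78% in Pulvinar, 5.63% in Anterior Thalamus and 5.92% in Centre Median. After adjustment over all probe sets with the block, 0.336% were called in Ventral Thalamus, 0.0997% in Medial Thalamus, 0.0944% in Centre Median and 0% in Pulvinar and Anterior Thalamus. Without the block 0.0105% were called in Centre Median and 0% in the others.

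The 13 members had a median difference of -0.19 in Ventral Thalamus, with 1 of 13 above 0, where all probe sets had a median of -0.02 and 44.6% above 0. In Medial Thalamus the median was 0.17, with 11 of 13 above 0, where all probe sets had a median of 0 and 50.1% above 0. The probe sets of a gene share its transcripts, and the 5 differences are not independent, since a low nucleus raises the others.

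Between pairs of nuclei, 0 of the 13 were called in any of the 10 pairs in either fit. With the block between 1 and 5 of them had an unadjusted p under 0.05 in a pair, and without it 0. Over all probe sets 4.03% to 12.5% had such a p in a pair with the block, the highest share in Medial minus Ventral Thalamus, where the members numbered 5. The pair with the lowest adjusted p was Medial minus Ventral Thalamus. There all 13 members lay above 0, with a median of 0.33, while 53.8% of all probe sets did, with a median of 0.01. NTRK2 214680_at differed by 0.71 in replicate 1 and 0.65 in replicate 2, a fitted 0.68 (SE 0.178, 1.60-fold, adjusted p = 0.105). BDNF differed by 0.94 and 0.75, a fitted 0.84 (SE 0.248, 1.80-fold, adjusted p = 0.151). For NTRK3, 217377_x_at and 215115_x_at each differed by 0.41 (SE 0.125 and 0.132, adjusted p of 0.168 and 0.194).

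Sums of cell type markers also differed between these nuclei. The summed intensity of 7 oligodendrocyte markers was 7740 and 11160 in the Medial Thalamus arrays of replicates 1 and 2 and 15460 and 18760 in those of Ventral Thalamus, and 7 of 7 lay above the other nuclei in Ventral Thalamus. For 8 astrocyte markers the sums were 9640 and 15390 against 8916 and 11300. Of these 7 of 8 lay above the other nuclei in Medial and 4 of 8 in Ventral Thalamus. GFAP, the astrocyte filament, had means of 11.82 in Medial and 10.03 in Ventral Thalamus, and AQP4, GJA1 and SLC1A3 were also higher in Medial. The other astrocyte markers were lower in Medial than in Ventral Thalamus: SLC1A2 (-0.42), S100B (-0.14), ALDOC (-0.12) and ALDH1L1 (-0.06). For 6 thalamic relay neuron markers the sums were 11790 and 17900 in Medial Thalamus, where 0 of 6 lay above the other nuclei, and 16370 and 24650 in Ventral Thalamus, where 5 of 6 did. For 2 GABA neuron markers they were 833.1 and 1189 against 1679 and 2294. Choroid plexus and meningeal markers summed to 5557 on the replicate 2 array of Medial Thalamus and to 622.8 to 942.6 on the other 9 arrays. Of these markers TTR had a mean of 9.91 in Medial Thalamus against 7.41 to 8.38 elsewhere. DCN had 9.06 against 8.66 to 8.87, and COL1A2 had 7.40 against 6.51 to 6.73, so the sum weighs TTR most. The part of these cell types in the member values was not tested.

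With the class term for the sex-linked signal, Medial minus Ventral Thalamus was called for BDNF (0.84, SE 0.154, adjusted p = 0.0208) and for 214680_at (0.68, SE 0.140, adjusted p = 0.0378), 2 of the 13, where 1.15% of all probe sets were called. Both nuclei were of the same class in each replicate set, so the term could not change these differences. They stayed at 0.84 and 0.68, and only the SE fell, from 0.248 and 0.178 with the block alone. With the actin covariate the values were 0.42 (SE 0.424, adjusted p = 0.896) and 0.55 (SE 0.331, adjusted p = 0.795), and 12 of 13 members lay above 0. The BDNF difference was 1.20 in the fit with the block when the Medial Thalamus array of replicate 2 was left out. That array had the high sum of choroid plexus and meningeal markers, and without it Medial Thalamus had a single array.

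Over all probe sets with the block, limma called 0.708% between Medial and Ventral Thalamus, 0.236% between Centre Median and Ventral Thalamus, 0.0525% between Anterior Thalamus and Centre Median and 0.0472% between Medial Thalamus and Pulvinar. It called 0.042% between Centre Median and Medial Thalamus, 0.0367% between Centre Median and Pulvinar, 0.0105% between Anterior and Ventral Thalamus and 0.00525% between Pulvinar and Ventral Thalamus, and 0% in the other 2 pairs. Without the block it called 0.00525% in each of the 3 pairs of Centre Median with Anterior Thalamus, Pulvinar and Ventral Thalamus, and 0% in the other pairs. In these 2 fits no pair of nuclei passed for any member, so this test did not resolve the order of the nuclei.

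The replicate sets, in contrast, differed for most members. With limma 10 of the 13 were called between replicate 2 and replicate 1, where 54% of all probe sets were, so such calls were frequent across the whole array. 7 were lower in replicate 2, where 29.9% of all probe sets were called lower, and 3 were higher, where 24.1% were called higher. The median over the members was -0.19 and over all probe sets -0.05.

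The direction followed the gene in part. BDNF was lower by 0.86 (SE 0.16, adjusted p = 0.000668), in 5 of 5 nuclei, with replicate 2 minus replicate 1 at -0.04 in Centre Median and -1.43 in Medial Thalamus as its ends. The NTRK2 probe sets 221795_at, 221796_at and 214680_at were higher in replicate 2 in 5 of 5 nuclei, by 0.69 (SE 0.11, adjusted p = 0.000181), 0.51 (SE 0.10, adjusted p = 0.000852) and 0.49 (SE 0.11, adjusted p = 0.00313). The fourth, 207152_at, differed by -0.01 (adjusted p = 0.938).

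Among the NTRK3 probe sets 5 of 7 were lower in replicate 2 and 0 passed as higher. The 3 with the _x_at suffix differed by -0.74, -0.59 and -0.46, the first of them 217377_x_at (SE 0.08, adjusted p = 1.32e-05). 215025_at was lower by 0.27 and 206462_s_at was lower by 0.34, whereas 213960_at and 215311_at differed by 0.22 and 0.07 and did not pass (adjusted p of 0.0627 and 0.533). NGFR was lower by 0.19 (SE 0.07, adjusted p = 0.0244), again in 5 of 5 nuclei.

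**Figure D3:**
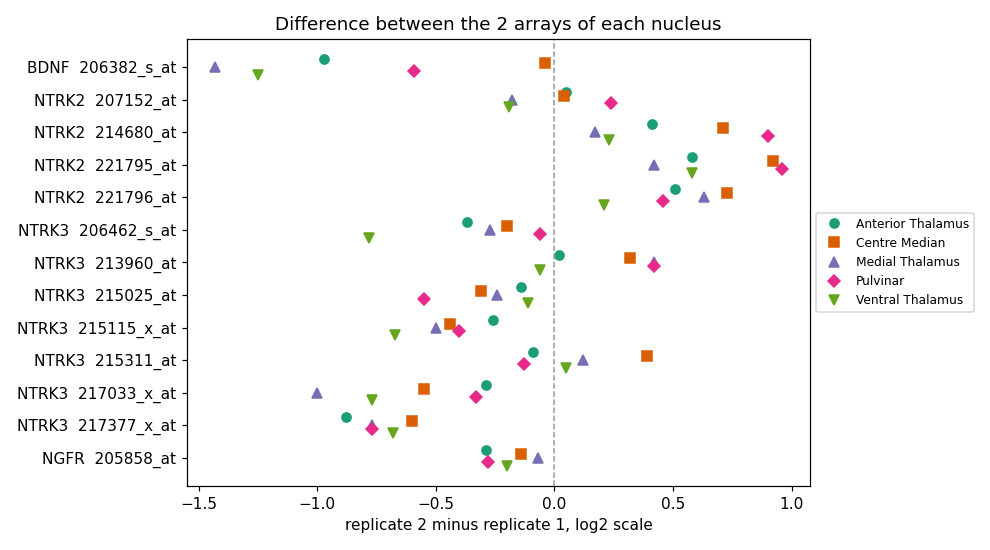
Each row is 1 probe set and each marker 1 nucleus; the horizontal axis is the log2 value of replicate 2 minus that of replicate 1. BDNF, NGFR and 5 of the NTRK3 probe sets lie below 0 in all 5 nuclei, and 3 of the 4 NTRK2 probe sets lie above 0 in all 5.

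Probe sets of one gene agreed only in part once each replicate set was centred on its own mean. Over the 10 arrays, which come in 2 sets of the same 5 nuclei, 214680_at and 221795_at of NTRK2 correlated at a Pearson r of 0.90 and a Spearman rho of 0.87. 207152_at correlated with them at 0.68 and 0.75. 221796_at stood apart, at 0.01 with 207152_at, 0.01 with 221795_at and 0.28 with 214680_at. The median over the 6 NTRK2 pairs was 0.48.

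For NTRK3 the 21 pairs had a median of 0.20 and ran from -0.73, between 206462_s_at and 215025_at, to 0.76, between 213960_at and 217377_x_at. 4 of the 21 exceeded 0.5, and all 4 involved 215115_x_at or 217377_x_at. Between genes, BDNF and the NTRK3 probe set 217377_x_at correlated at 0.80. These are descriptions of 10 arrays with shared labelling and punches, and they carry no test.

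**Figure D4:**
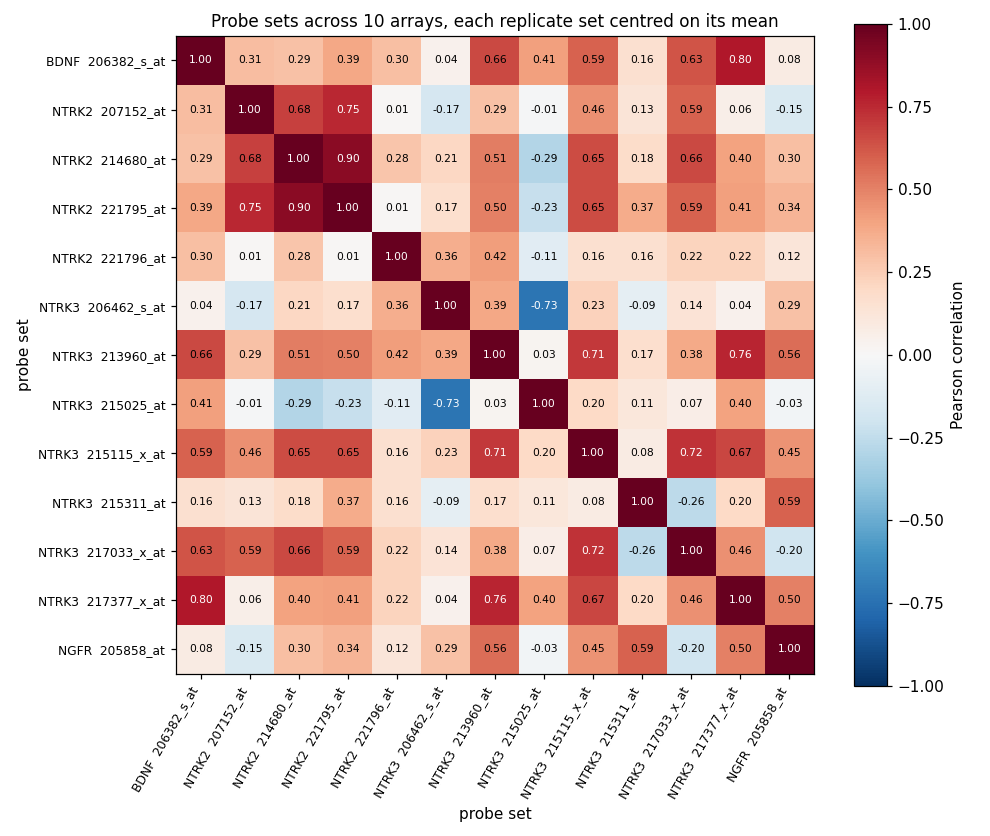
Each cell gives the Pearson correlation of 2 probe sets over 10 arrays after each replicate set was centred on its mean; red is positive and blue negative. The block of 207152_at, 214680_at and 221795_at of NTRK2 stands at 0.68 to 0.90, and 221796_at of the same gene at 0.01 to 0.28 with them.

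The genes most like each member were those with the highest correlation over the same 10 centred arrays, among other genes above the median intensity. For BDNF these were BCL2L14 (0.95), GUCA1A (0.94) and SCAF11 (0.92), and for NTRK2 221795_at they were PLXNA1 (0.92), TGFB2 (0.92) and ELL2 (0.91). For NTRK3 215115_x_at they were SLC11A1 (0.95), GOLGA1 (0.95) and MUC5AC (0.93), and for NGFR they were EDA2R (0.98), MEP1B (0.95) and ACRV1 (0.94). Each was the best of the probe sets above the median, 9532 for BDNF, on 10 arrays, and such a maximum is high by selection.

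Other genes of neurotrophin signalling were read from 8 lists of 114 genes, each by its brightest probe set. Of these 90 were measured, and limma called 1 in the F test with the block and 0 without it, beside the 0.215% and 0% of all probe sets. At an unadjusted p under 0.05 with the block 11 of the 90 (12.2%) were found, against 8.92% of all probe sets. The other listed genes were not analysed here.

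The called gene was in the list of enzymes and inhibitors that process pro-neurotrophins, where 1 of 11 passed. SERPINI1, an inhibitor of tissue plasminogen activator, had a mean of 10.88 in Centre Median and 9.08 to 9.59 elsewhere (F test adjusted p = 0.0235). In the sortilin family 0 of 2 passed. SORL1, a sorting receptor related to sortilin, had means of 9.51 in Anterior Thalamus to 10.18 in Centre Median (adjusted p = 0.309), and SORCS3 had means of 5.86 to 6.47 (0.642).

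Downstream of the Trk receptors, 0 of 22 adaptors and 0 of 18 cascade genes passed the F test with the block. The adaptors with the smallest p were GAB2 (means of 8.39 to 8.76, adjusted p = 0.611) and GAB1 (6.28 to 6.55, 0.678), docking proteins of receptor kinases. Among cascade genes RPS6KA2, a ribosomal S6 kinase activated by ERK, missed the F test (adjusted p = 0.0783). It was higher in Ventral Thalamus than in the other 4 nuclei, at 8.76 against means of 7.62 to 8.12 (difference 0.88, adjusted p = 0.029 with the block). CAMK4, a calcium-dependent kinase of the nucleus, had its highest mean of 7.63 in Centre Median (F test adjusted p = 0.295).

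Among partners of p75, 0 of 12 passed, with the smallest p for the kinase MAPK8 (means of 7.81 to 8.21, adjusted p = 0.636) and for NDN (8.65 to 8.95, 0.814). Of the neurotrophin-responsive genes 0 of 9 passed. DUSP6, a phosphatase of ERK induced by its activity, had means of 8.56 in Pulvinar and 8.49 in Ventral Thalamus and 7.86 to 8.22 elsewhere (adjusted p = 0.155). FOS, an immediate early gene, averaged 7.13 in Medial Thalamus and 6.54 to 6.74 elsewhere (adjusted p = 0.189). Of the other neurotrophic factors and receptors 0 of 16 passed, with the smallest p for the cytokine receptors LIFR (means of 4.59 to 4.93, adjusted p = 0.40) and IL6ST (8.11 to 8.59, 0.461).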

How the data were processed

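The deposited values are linear intensities. For their computation the submitters' processing notes name RMA, without a version. Whether both replicate sets were normalised together is not stated. The lowest intensity was 11.97 to 12.30 on replicate 1 arrays and 9.485 to 9.548 on replicate 2 arrays. Values were taken as log2(intensity + 1). Of 22283 probe sets, 19065 had exactly 1 gene symbol in the platform annotation and were no controls, and all entered each fit.

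limma 3.58.1 in R 4.3.3 fitted 1 coefficient per nucleus with a variance trend, and Benjamini-Hochberg adjustment covered all probe sets within a comparison, at 0.05. Same-numbered arrays deviated together (correlations of 0.752 to 0.828 in all 10 pairs of nuclei), so the replicate numbers were treated as paired and the fit with the replicate block is given too. Residual degrees of freedom were 5 without and 4 with the block, and 3 with a further term. The fits were tested on simulated data. Figures used matplotlib 3.10.9.

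All member probe sets are named. From each list, genes called in the F test in either fit are named, or else the 2 with the smallest p with the block; RPS6KA2 was singled out further for its Ventral Thalamus value after that value was seen. Members and lists were chosen with earlier results of these data known. No coordinates or sequences are given, since no build is stated with the values. Alternatives were another pseudocount, a filter on low values, quantile normalisation, 1 probe set per gene, all probe sets that are not controls, no variance trend, an actin covariate, a class of the XIST and RPS4Y1 signal, and each array left out.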

Additional observations from a re-analysis of the deposited data

How the results depend on the processing

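The replicate block gave 0 called members in the F test, in each nucleus against the rest and in the 10 pairs, as did the fits without it. The pseudocount of 16, the filter to probe sets above the median, quantile normalisation, 1 probe set per gene, all probe sets that are not controls, no variance trend and the actin covariate also gave 0 in each. The filter left 9 of the 13 members and 1 probe set per gene left 4. The block with the XIST and RPS4Y1 class gave 1 member in Ventral Thalamus and 2 among the pairs. Those 2 were in Medial minus Ventral Thalamus, where the class term left the differences unchanged. Leaving out an array left its nucleus with a single array. Without Medial Thalamus replicate 2, BDNF differed by 1.20 in Medial minus Ventral Thalamus with the block, against 0.84 with all arrays. Members called between the replicate sets numbered 7 after quantile normalisation and 8 to 10 without single arrays, against 10. Without centring, the median correlation among probe sets was 0.58 for NTRK2 and 0.12 for NTRK3, against 0.48 and 0.20. Leaving out single arrays turned the sign of the widest pair for 221796_at (-0.08 to 0.55), 221795_at (-0.02 to 0.91), 215311_at (-0.05 to 0.34, or -0.06 to 0.35 with the block) and 217033_x_at (-0.17 to 0.84). The other 9 widest pairs kept their direction under every alternative run. The files hold no detection calls, so how far NGFR and BDNF stood above background is unknown.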
